A study of Bos taurus with 21 samples.

Results

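The growth hormone receptor gene (GHR, ENSBTAG00000001335) and the gene for insulin-like growth factor 1 (IGF1, ENSBTAG00000011082) were followed in the hypothalamus of heifers, female cattle (Bos taurus) that have not yet calved. They were chosen by identifier, with earlier results of these data known, as 2 of the 22984 genes in the deposited count tables. Both were present in each of the 21 libraries. The tables list identifiers only. The symbols GHR and IGF1 came with the list of members, and no genome coordinates are given because the build behind the tables is not given in the sources used here.

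The libraries fall into 3 groups of 7. Control heifers were fed at 1.2 Mn, the labels' measure of feeding level, and ovulated. Restricted heifers were fed at 0.4 Mn and were divided by outcome into restricted anovulatory (RA), which stopped ovulating, and restricted ovulatory (RO), which did not. All were slaughtered after 18 days of these diets, and polyA-selected RNA from hypothalamic tissue was sequenced as single reads. RA and RO thus shared 1 diet, and animals were placed in them by outcome. The labels name no breed, age or drug treatment.

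Growth hormone from the pituitary binds GHR, a cytokine-type receptor that signals through the kinase JAK2 and the transcription factor STAT5, and IGF1 is a main STAT5 target in liver. In undernourished cattle the liver is known to make less GHR and less IGF1, so that growth hormone stays high in blood while IGF1 is low. In the brain GHR is found in hypothalamic neurons, among them somatostatin neurons that restrain growth hormone release and AgRP neurons that drive feeding. IGF1 reaches the brain from blood and is also made there by neurons, glia and cells of vessels and meninges, and GnRH neurons, which control ovulation, carry its receptor.

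Total counts ran from 3379050 to 4476586 per library. A date-like token in the names of the count tables takes 4 values, called runs A to D in their order. A single library per group came from run A. Run B held 1 control and 6 RO, run C 5 controls and 2 RA, and run D 4 RA alone. Group and run therefore largely coincided, above all for RA against RO, which shared only run A. Control replicate 5, from run A, stood apart from the rest, with a mean correlation of 0.927 with the other controls across genes, against 0.956 to 0.973 for every other library with its own group. The labelled tissue was not checked against marker genes, since these have no names in the tables.

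GHR gave 53 to 228 reads per library (2275 in all), and the level is given as CPM, the count scaled to a common library total. Its mean was 32.5 ± 9.03 CPM in RA, 27.1 ± 4.84 in controls and 22.3 ± 5.88 in RO (SD, n = 7 each). The order of the groups was thus RA, control, RO, with the well-fed animals between both restricted groups. Neighbours in that order, RA and control or control and RO, did not differ beyond the spread between libraries (edgeR adjusted p = 0.577 and 0.787).

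In RA the GHR level ran from 24.5 CPM (replicate 1) through a median of 31.5 to 51.1 (replicate 6). Replicate 6, with 228 reads, lay far above the next RA library at 34.3 CPM. Its 95% exact binomial interval for counting error alone, 44.7 to 58.2 CPM, lay above every other library of the series, of which the next highest was that RA library, replicate 2 (34.3 CPM, interval 28.6 to 40.8). PCR reads without molecular identifiers are not independent molecules, so such intervals cover counting error only.

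In controls GHR ran from 20.7 CPM through a median of 30.5 to 31.6. The 7 controls fell in a lower set of 3 (20.7 to 22.8 CPM, replicates 1 to 3) and a higher set of 4 (30.5 to 31.6 CPM, replicates 4 to 7). In RO GHR ran from 13.4 CPM (replicate 5) through a median of 23.1 to 30.8 (replicate 2). All 7 RA libraries lay above the RO median and 4 of them above every RO library, while 4 RO libraries lay below every RA library. The RA and RO ranges overlapped, as they did for all but 0.67% of the tested genes.

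IGF1 gave few reads, with 3 to 41 reads per library (286 in all). Its mean was 3.83 ± 3.27 CPM in controls, 3.81 ± 1.12 in RO and 2.72 ± 1.19 in RA (SD, n = 7 each). RA had the lowest mean and the lowest median, and controls and RO had almost the same mean. By run, the IGF1 mean was 1.88 CPM in run A, 4.16 in run B, 3.93 in run C and 2.57 in run D. CPM is not corrected for transcript length, so these levels are not compared with those of GHR.

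Controls covered the widest range of IGF1, from 0.764 CPM (replicate 4, 3 reads) through a median of 3.98 to 10.1 (replicate 3, 41 reads), a ratio of 13.2 between the highest and the lowest. The control replicates 4, 5 and 7 held 3 to 5 reads, fewer than any restricted library. In RA IGF1 ran from 1.34 CPM (replicate 6, 6 reads) through a median of 2.23 to 4.51 (replicate 4). In RO it ran from 2.37 CPM through a median of 3.84 to 5.74, and 4 RA libraries lay below every RO library. All 3 pairs of groups overlapped in range for IGF1, as they did for GHR. Ranges of RA and control did not overlap for 0.0521% of tested genes, and those of RO and control for 0.104%.

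**Figure D1:**
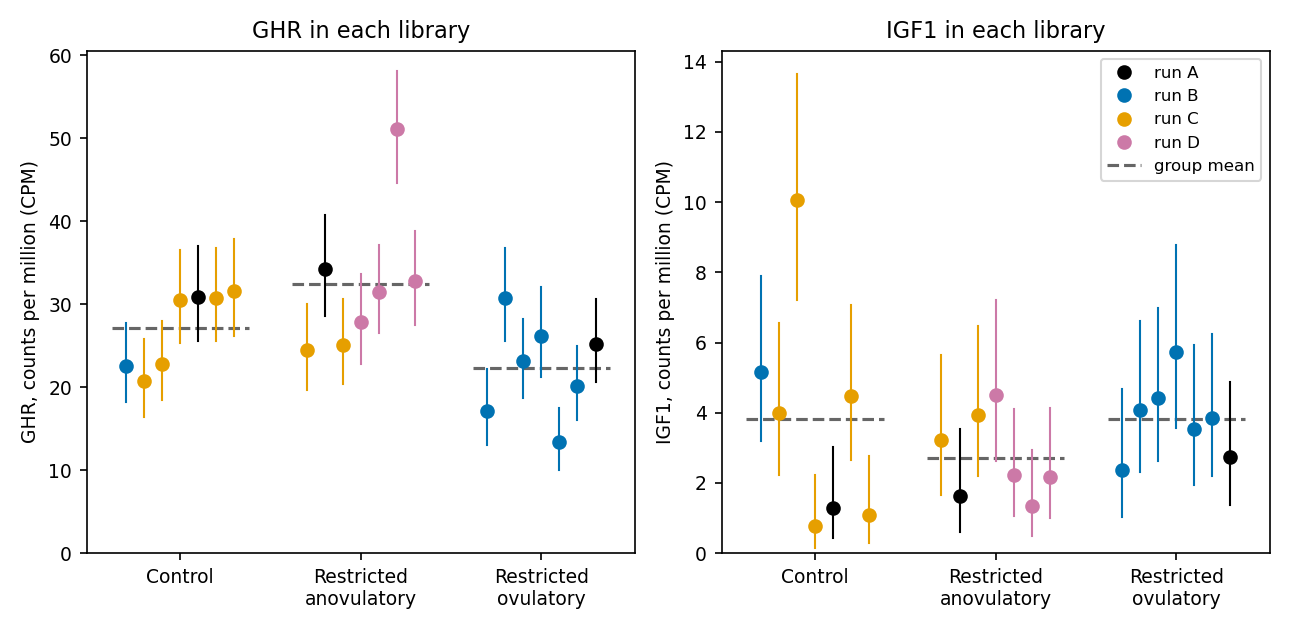
Level of GHR (left) and IGF1 (right) in CPM in each library, in order of replicate number within each group. Points are libraries coloured by run, vertical lines are 95% exact binomial intervals for counting error, and dashed lines are group means. GHR was highest in RA replicate 6 (51.1 CPM) and lowest in RO replicate 5 (13.4 CPM), and IGF1 in controls ran from 0.764 to 10.1 CPM.

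The spread of IGF1 differed in size between the groups by description. Among controls the variance of the IGF1 counts was 10.9 times that of counting error, in RA it was 2.11 times, and in RO it was 1.20 times. Without control replicate 3 the control value was 5.31 times, and without RO replicate 4 the RO value was 0.680 times. The SD of log2 CPM (with a prior count of 2) was 1.13 in controls, larger than for 95.8% of the 500 tested genes of nearest abundance, against 0.538 in RA (62.0%) and 0.375 in RO (33.4%). In RO, then, the IGF1 counts scattered little more than sampling of reads alone would give. By run, the variance was 1.05 times that of counting error in run B, which held most RO libraries. It was 9.40 times in run C, which held most controls. Group and run therefore cannot be told apart in this spread. For GHR the variance was 3.36 times that of counting error in controls, 10.5 times in RA and 5.98 times in RO. Without RA replicate 6 it was 2.21 times in RA, below the controls, and without RO replicate 5 it was 3.58 times in RO. The SD of log2 CPM for GHR was 0.262 in controls (larger than for 49.0% of its 500 nearest genes), 0.354 in RA (78.8%, and an SD of 0.202 without replicate 6) and 0.398 in RO (85.2%).

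The biological coefficient of variation, edgeR's estimate of the spread beyond counting error within groups, was 20.9% for GHR, above that of 70.2% of the 500 genes of nearest abundance, whose median was 16.4%. For IGF1 it was 49.0%, above that of 88.4% of its nearest genes (median 28.8%). Each fold change for IGF1 accordingly has a standard error above 0.36 on the log2 scale in the fit to group means.

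RA and RO received the same diet, and their comparison asks what differed with the loss of ovulation. The fitted GHR level was 1.43-fold higher in RA than in RO (95% interval 1.12 to 1.83), a log2 fold change of 0.52 with a standard error of 0.17. The unadjusted p was 0.00633 and the adjusted p 0.119 in edgeR's quasi-likelihood test over 13435 genes. GHR therefore did not pass an adjusted p of 0.05. Genes passing it made up 0% of those tested (0 of 13435), while 20.7% had an unadjusted p under 0.05, and GHR ranked 715 by p-value. DESeq2 passed 4.31% of the genes it adjusted (478 of 11090), and limma-voom with library quality weights passed 0, with 2732 under an unadjusted 0.05. GHR had an adjusted p of 0.0621 in DESeq2 and 0.193 in limma-voom. DESeq2 gave IGF1 no adjusted p in this comparison (unadjusted p = 0.260).

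Among the 500 tested genes of nearest abundance, 4.4% had a larger fold change than GHR between RA and RO. The mean log2 CPM of GHR was 5.003 in RA and 4.47 in RO, and a two-sided exact permutation test of that difference over 3432 arrangements gave p = 0.0163 (0.0979 adjusted over the 6 tests of both genes and 3 pairs of groups). The test takes the libraries as independent animals. The labels number replicates without saying that each was a separate animal, so p-values set a difference against the spread between these libraries.

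Run moved with this GHR difference. A fit that also held run as a covariate gave a GHR log2 fold change of 0.17 for RA against RO (standard error 0.31, edgeR adjusted p = 0.9999). That fit takes the RA side from its 3 libraries outside run D. In run A, the only run with both groups, GHR measured 34.3 CPM in the 1 RA library and 25.3 in the 1 RO library. Within RA the 4 libraries of run D averaged 35.8 CPM and the 3 of earlier runs 28.0, a log2 fold change of 0.33 (standard error 0.22, edgeR adjusted p = 0.717). IGF1 measured 2.57 CPM in run D and 2.93 in the earlier runs there (log2 fold change -0.24, standard error 0.48, edgeR adjusted p = 0.927). Of all tested genes 0% passed between these runs, and for 7.69% the unadjusted p was under 0.05. The 2 RA libraries of run C, at 24.5 and 25.1 CPM, lay inside the range of the 5 controls of that run (20.7 to 31.6 CPM). Without RA replicate 6, the library with the most GHR, the log2 fold change between RA and RO was 0.39 (edgeR adjusted p = 0.213). Outcome and run cannot be told apart for most of these libraries.

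IGF1 was 0.700-fold in RA relative to RO (95% interval 0.376 to 1.30), a log2 fold change of -0.52 with a standard error of 0.43 and an edgeR adjusted p of 0.506. That interval spans both a marked deficit and a modest excess of IGF1 in RA. At this depth and this spread between libraries the data do not tell these apart. The exact permutation test gave p = 0.0862 (0.231 adjusted over 6). Run as a covariate gave -0.24 (standard error 0.78), and in run A the RA library held 6 reads of IGF1 and the RO library 11.

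RA was next set against well-fed controls, which differ from it in diet and in outcome. GHR was 1.19-fold in RA relative to controls (95% interval 0.934 to 1.52), a log2 fold change of 0.25 with a standard error of 0.17 and an edgeR adjusted p of 0.577. Genes past the adjusted threshold made up 0% here too, by edgeR, DESeq2 and limma-voom, and 9.26% had an unadjusted edgeR p under 0.05. GHR medians were close, 31.5 CPM in RA and 30.5 in controls, and 4 of 7 RA libraries lay above the control median. For GHR the log2 fold change was -0.0039 once run was a covariate, and 0.11 without RA replicate 6. The 3 RA libraries outside run D averaged 28.0 CPM of GHR, close to the control mean of 27.1.

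IGF1 was 0.700-fold in RA relative to controls (95% interval 0.377 to 1.30), a log2 fold change of -0.51 with a standard error of 0.43 and an edgeR adjusted p of 0.642. The value was smaller in size with run in the fit and without 1 control, with wide standard errors. The log2 fold change was -0.20 with run in the fit (standard error 0.57) and -0.092 in the runs with both groups (standard error 0.70). Both fits take the RA side from its libraries outside run D. Without control replicate 3, which held 41 of the 107 IGF1 reads of that group, the log2 fold change was -0.06. On the scale of mean log2 CPM, where that library weighs less, the difference was -0.15 (exact permutation p = 0.769).

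The comparison of RO with control concerns the restricted diet in animals that all ovulated. GHR was 0.833-fold in RO relative to controls (95% interval 0.651 to 1.07), a log2 fold change of -0.26 with a standard error of 0.17 and an edgeR adjusted p of 0.787. No gene passed in edgeR, DESeq2 or limma-voom (0%), and 6.43% had an unadjusted edgeR p under 0.05. For GHR, 1 of 7 RO libraries lay above the control median and 3 lay below every control. Run as a covariate gave -0.18 (standard error 0.26), the runs with both groups gave -0.13, and limma-voom gave -0.14. In run B the 6 RO libraries averaged 21.8 CPM of GHR (13.4 to 30.8) and the 1 control measured 22.6. In that run the control therefore lay inside the RO range.

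IGF1 had a fitted log2 fold change of 0.00057 between RO and controls (standard error 0.44, edgeR adjusted p = 0.99998). Its 95% interval, 0.530-fold to 1.89-fold, shows how wide a difference the IGF1 counts would still allow. Without control replicate 3 the log2 fold change was 0.45, and the mean log2 CPM was 2.07 in RO and 1.75 in controls (exact permutation p = 0.498).

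The mean of both restricted groups, each with the same weight, was also compared with control, as a comparison of diets whatever the outcome. Diet and run coincided in part, so an effect of diet cannot be told apart from run here. GHR had a log2 fold change of -0.0052 (standard error 0.15, 95% interval of the fold 0.807 to 1.23, edgeR adjusted p = 0.9998), as RA lay above and RO below the controls. IGF1 had a log2 fold change of -0.26 (standard error 0.36, 95% interval of the fold 0.496 to 1.41, edgeR adjusted p = 0.992), which became -0.079 with run as a covariate, -0.084 in the runs with both groups and 0.19 without control replicate 3. With run as a covariate GHR was at -0.091. No gene passed in this comparison (0%), and 4.76% had an unadjusted edgeR p under 0.05. The comparisons share control or restricted libraries and are not independent of each other.

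**Figure D2:**
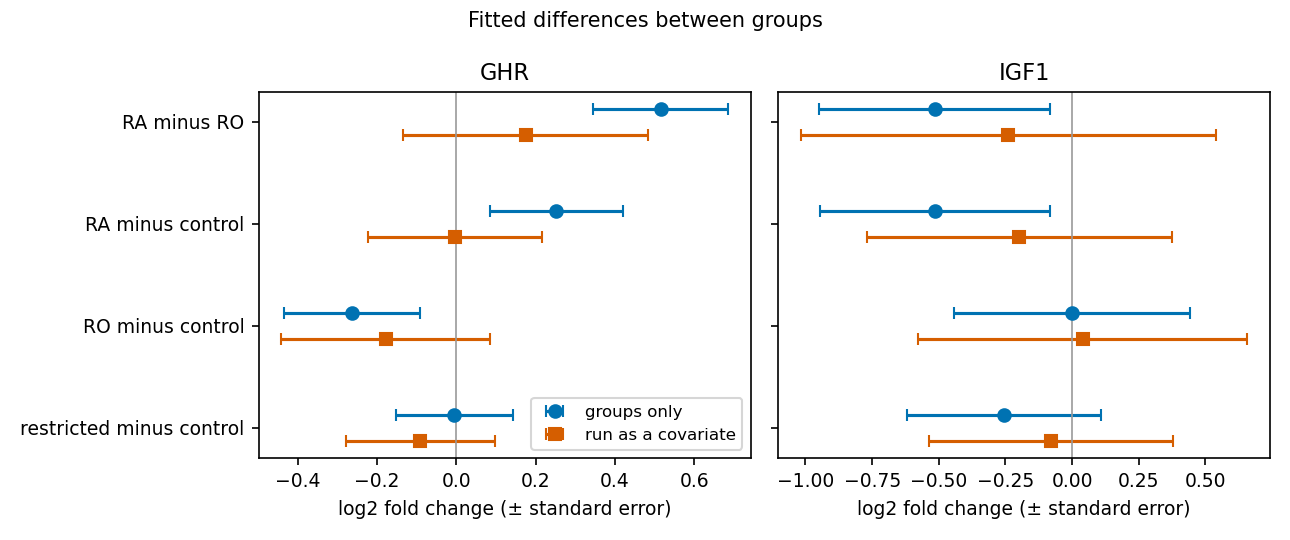
Log2 fold change of GHR (left) and IGF1 (right) in the 4 comparisons, with the standard error as bars, from a fit to group means (circles) and from a fit with run as a covariate (squares). For GHR between RA and RO the value was 0.52 without run and 0.17 with it, and the standard errors of IGF1 were wider than those of GHR throughout.

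**Figure D3:**
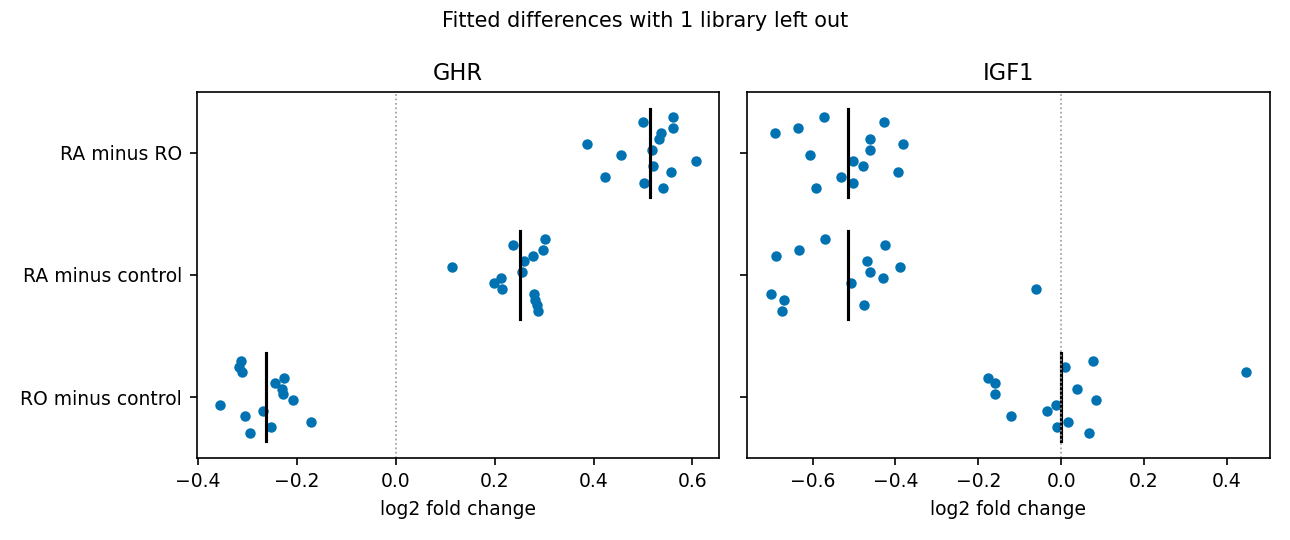
Log2 fold change of GHR (left) and IGF1 (right) when each library of the compared groups was left out in turn (points), beside the value with all libraries (vertical bars). GHR between RA and RO stayed between 0.39 and 0.61, and 1 point stands off for IGF1 against control, the fit without control replicate 3 (-0.06 for RA and 0.45 for RO).

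Across the 21 libraries GHR and IGF1 levels ran in opposite directions. Pearson's r of log2 CPM was -0.47 (permutation p = 0.0303, 0.0910 adjusted over 6 relations of the pair) and Spearman's rho was -0.50 (permutation p = 0.0208, 0.0714 adjusted). Neither passed after adjustment. Without the 2 libraries farthest from the median GHR, RA replicate 6 and RO replicate 5, r was -0.47. Without RA replicate 6 alone it was -0.40 (permutation p = 0.0831).

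Within RA, r was -0.85 (exact permutation p = 0.00754, 0.0452 adjusted) and rho -0.86 (exact permutation p = 0.0238, 0.0714 adjusted), n = 7. The RA library with the most GHR reads, replicate 6, held the fewest IGF1 reads together with replicate 2, which was second in GHR level. Without the 2 RA libraries farthest from the median GHR (replicates 1 and 6), r was -0.91. In controls r was -0.72 (exact permutation p = 0.0899) and rho -0.50 (p = 0.267 by the same exact test). The 3 controls with 3 to 5 IGF1 reads all belonged to the set of 4 with higher GHR. That split was drawn from these same values, so it is not separate from the correlation in controls. In RO the sign was positive, with r = 0.41 (exact permutation p = 0.358) and rho = 0.57 (p = 0.200 by the same exact test), and r was 0.11 without RO replicates 1 and 5, the farthest from the median GHR. In controls r was -0.81 without replicates 1 and 2, chosen in the same way. The difference between these correlations was not tested.

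Within runs the relation of GHR and IGF1 did not hold in 1 direction. In run B, which held 6 RO libraries and 1 control, r was 0.59 and rho 0.71 (exact permutation p = 0.160 and 0.0881), and r was 0.96 without RO replicates 2 and 5. In run C, of 5 controls and 2 RA libraries, r was -0.66 and rho -0.46 (exact permutation p = 0.115 and 0.302), and r was -0.78 without control replicates 6 and 7. On deviations from the run means r was -0.31 over the 21 libraries (permutation p = 0.174). The deviations were permuted freely across runs, so that p is approximate. Runs A and D held too few libraries for a correlation. Both levels share the library total as divisor.

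**Figure D4:**
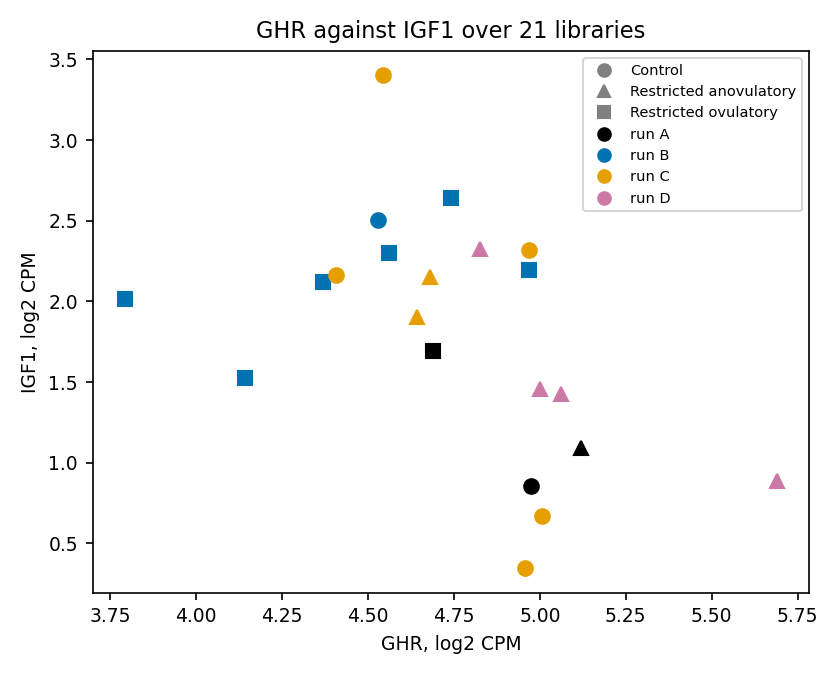
IGF1 against GHR in log2 CPM in the 21 libraries, with the group as the shape and the run as the colour of each point. RA libraries (triangles) run from upper left to lower right, as do controls (circles), and RO libraries (squares) do not.

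GHR also moved with measures of the whole library, a comparison added after the values had been seen. Its log2 CPM correlated with the scaling factor of the trimmed mean of M-values (TMM, a measure of how a library's composition differs from the rest) at r = 0.72 and rho = 0.76 over 21 libraries (permutation p = 0.000160 and 0.000120, 0.00288 and 0.00216 adjusted over 18 relations with library measures). With the number of genes detected it gave r = 0.63 and rho = 0.68 (permutation p = 0.00301 and 0.000790, 0.0271 and 0.00711 adjusted). Without the 2 libraries farthest from the median of each measure, GHR still gave r = 0.60 with the scaling factor and 0.58 with genes detected. The log2 CPM was not scaled by the TMM factor, and both come from the same counts. The share of all tested genes that correlate as strongly was not computed, so these values are not shown to be particular to GHR.

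Within run B, GHR and the scaling factor gave r = 0.77 (exact permutation p = 0.0438, 0.158 adjusted) and rho = 0.86, and within run C r = 0.41 (exact permutation p = 0.394) and rho = 0.39. GHR and genes detected gave r = 0.84 in run B (exact permutation p = 0.0190, 0.114 adjusted) and 0.44 in run C (p = 0.334 by the same exact test), with rho of 0.86 and 0.43. No within-run value passed after adjustment, and all 4 were positive. The total count gave r = 0.37 and rho = 0.097 with GHR over all libraries (permutation p = 0.101 and 0.676). IGF1 gave r = -0.47 and rho = -0.37 with the scaling factor (permutation p = 0.0337 and 0.10005, 0.152 and 0.300 adjusted), and r = -0.31 and rho = -0.20 with genes detected (permutation p = 0.165 and 0.379). Within run B, IGF1 gave r = 0.37 and rho = 0.61 with the scaling factor (exact permutation p = 0.428 and 0.167), and r = 0.69 and rho = 0.75 with genes detected (exact permutation p = 0.0800 and 0.0663), opposite in sign to the values over all libraries. Within run C, IGF1 gave r = -0.33 and rho = 0.14 with the scaling factor (exact permutation p = 0.545 and 0.783), and r = -0.25 and rho = 0.11 with genes detected (exact permutation p = 0.617 and 0.840). Without the 2 libraries of run C farthest from the median scaling factor, r was 0.50. The sign for IGF1 thus differed between run B and all libraries for both measures. The log2 CPM of GHR was also computed with library sizes scaled by the TMM factor. Its mean was then higher in RA than in RO by 0.51 (exact permutation p = 0.0152, 0.0909 adjusted). On total counts that difference was 0.54 (p = 0.0163 by the same exact test, 0.0979 adjusted). Beyond this scaling, the part of library composition in the GHR difference between RA and RO was not tested. In tissue of mixed cells, fewer cells of a type and less RNA per cell cannot be told apart.

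**Figure D5:**
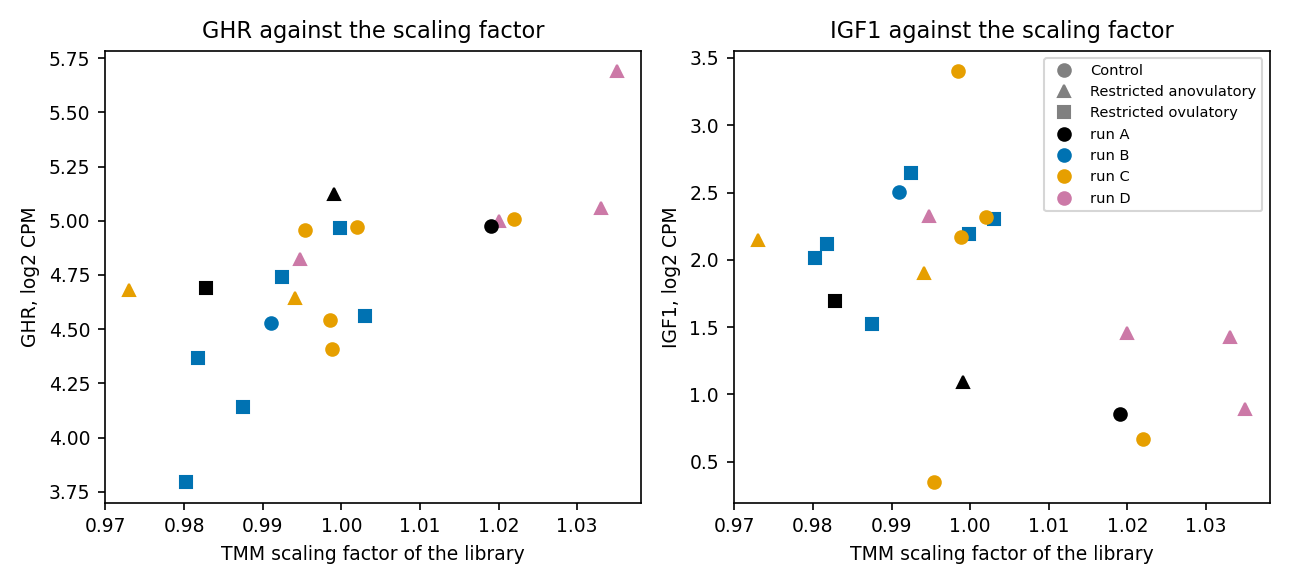
Log2 CPM of GHR (left) and IGF1 (right) against the TMM scaling factor of each library, with the group as the shape and the run as the colour. GHR was high where the factor was high (r = 0.72), with RA replicate 6 at the top right, and IGF1 showed the opposite sign (r = -0.47).

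Genes with the most similar pattern to GHR over the 21 libraries followed it closely. The 5 most alike by Spearman's rho of log2 CPM had rho between 0.88 and 0.89, led by ENSBTAG00000021523 (228.1 CPM in RA, 222.4 in controls and 201.4 in RO, rho = 0.89). The most opposite gene, ENSBTAG00000003191, had rho = -0.89, with 251.0 CPM in RA, 284.8 in controls and 316.0 in RO. For IGF1 the 5 most alike had rho between 0.81 and 0.84, led by ENSBTAG00000016444 (62.9 CPM in RA, 65.0 in controls and 68.97 in RO, rho = 0.84), and the most opposite was ENSBTAG00000005751 (rho = -0.84). These are the extremes of 13434 genes over libraries that share runs, and the genes have no names in the tables. Among those 13434 genes, 8.49% had a more negative rho with GHR than IGF1 had, and 6.52% had a more negative rho with IGF1 than GHR had.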

How the data were processed

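Per the submitters' processing notes, CASAVA 1.4, Bowtie, SAMtools and HTSeq were used. No role or setting of these tools, genome build, annotation release or strandedness is given in the sources used here. The authors deposited 1 table of raw counts per gene for each library, with no normalization. None of the 22984 Ensembl-style identifiers could be paired with a symbol (0 matches in the reference gene table), so the 19 lists of pathway genes and cell type markers were not tested. The members and lists were chosen with earlier results of these data known.

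Genes were kept by edgeR's filterByExpr (minimum count 10, minimum total 15), which left 13435 genes, GHR and IGF1 among them. After TMM scaling, the robust quasi-likelihood F-test of edgeR 4.0.16 (R 4.3.3) was run on 3 group means over all 21 libraries, with Benjamini-Hochberg adjustment over all tested genes and a threshold of 0.05. Standard errors were derived from the log2 fold change and its F. CPM used total counts, and log2 CPM a prior count of 2. Genes of nearest abundance are the 500 closest in mean log2 CPM. The test was checked on simulated data. Correlations over 21 libraries used 100000 permutations.

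The alternatives tried were scaling by RLE or the upper quartile, and a non-robust spread. Unfiltered genes, or those of at least 5 CPM in 7 libraries, were also tested. DESeq2 1.42.0 was run, and limma-voom 3.58.1 with quality weights, which give outlying libraries less weight. Another fit used only the compared groups. Run was a term in all libraries or in runs with both groups, and replicate number was a block. Each library was also left out in turn. The rule for named genes was both members, and the 5 genes most like and the 2 least like each. Of those, 1 on each side is printed, since the genes have no names. No pair of libraries of a group agreed within sampling noise (chi-square per degree of freedom at least 2.21).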

Additional observations from a re-analysis of the deposited data

Results flagged for a closer look

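Of 18 sets of 7 libraries (GHR and IGF1 as CPM and as log2 CPM, the total count and the mean correlation with the own group, in each of the 3 groups), 2 held an extreme library whose gap to the next exceeded the 95% limit of Dixon's test, which about 1 set in 20 does by chance.

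GHR in RA replicate 6 measured 51.1 CPM, against 24.5 to 34.3 CPM in the other RA libraries. Its gap to the next library was 0.631 of the RA range, and on the log2 scale the gap, 0.543 of the range, stayed under the limit. The same library had the highest TMM factor (1.035) and the most genes detected (16391) of the series.

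Control replicate 5 had a mean correlation of 0.927 with the other controls, against 0.956 to 0.967 for those. It measured 30.9 CPM of GHR, inside the range of the other controls, and 1.30 CPM of IGF1, among the 3 lowest. Without it GHR had a log2 fold change of 0.28 (RA minus control) and -0.24 (RO minus control), and IGF1 one of -0.67 and -0.16.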

How the results depend on the processing

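For differences between groups, and between runs within RA, no adjusted p of either gene was under 0.05 in any setting that gave one. DESeq2 gave none for IGF1 between RA and RO. The GHR difference between RA and RO kept its sign under all 10 other settings (log2 fold change 0.17 to 0.54) and without each library (0.39 to 0.61), with adjusted p-values from 0.0621 (DESeq2) to 0.9999 (run as a covariate). That of IGF1 ran from -0.61 to -0.24 and from -0.69 to -0.38. For RA against control, GHR ran from 0.11 to 0.30 without each library, and reversed to -0.0039 with run as a covariate and -0.043 in the runs with both groups, and IGF1 ran from -0.70 to -0.06, with -0.20 for run as a covariate and -0.092 in the runs with both groups. For RO against control, GHR ran from -0.35 to -0.17 without each library and from -0.28 to -0.13 under the other settings, and IGF1 from -0.18 to 0.45 without each library, with -0.0035 under RLE scaling, -0.0081 under upper-quartile scaling and -0.00094 in DESeq2. For restricted against control, GHR ran from -0.079 to 0.041 without each library and was 0.043 in limma-voom, and IGF1 ran from -0.44 to 0.19, with -0.079 for run as a covariate. Within RA, run D against earlier runs ran from 0.12 to 0.49 for GHR and from -0.65 to 0.043 for IGF1 without each library. In the runs with both groups alone, used for permutations kept within runs, the IGF1 difference between RA and control was 0.088 in mean log2 CPM. Over all libraries of both groups it was -0.15. The correlation of GHR with IGF1 was -0.41 on deviations from group means, -0.31 on deviations from run means, 0.59 within run B and -0.66 within run C, none with an unadjusted p under 0.05, and -0.54 to -0.40 without each library. Those of library measures, without each library, ran from 0.15 to 0.45 (GHR with total count), -0.083 to 0.15 (IGF1 with total count), 0.47 to 0.72 and -0.40 to -0.20 (genes detected) and 0.62 to 0.76 and -0.56 to -0.39 (scaling factor), GHR first in each pair. The cause of these shifts was not tested.

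The number of genes past the threshold for RA against RO was 0 in edgeR's test, 478 with DESeq2, 1 with the compared groups alone and 0 to 400 without 1 library (400 without RO replicate 4), and GHR was not among them, nor was IGF1 where it had an adjusted p. It was 0 in the other comparisons under every setting.

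Replicate numbers did not pair the libraries. Deviations from the group means correlated by -0.0448 on average over 21 same-numbered pairs, 4 of them above 0.1, and 3 of 21 libraries matched best with their own number. With the replicate number as a block the GHR log2 fold changes were 0.23 (RA against control), -0.27 (RO against control) and 0.51 (RA against RO), those of IGF1 were -0.39, 0.16 and -0.55, and 0 genes passed. The filter of at least 5 CPM removed IGF1, so it has no value for that gene. RA against RO in shared runs was not fitted, since run A holds 1 library of each. At 3 to 41 reads, counting error was a larger share of the value for IGF1 than for GHR.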
